A study of Mus musculus with 12 samples.

Results

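The 3 h stage of mouse B cell activation was compared with the stage before it, naive B cells, and the stage after it, 10 h, in 6 of the 12 RNA-Seq libraries of the series (2 per stage). The members are these 6 libraries, and the 3 h libraries were set against the mean of the naive and 10 h means on the log2 scale, each stage with equal weight, and also against each neighbour alone. All cells came from the spleens of male C57BL/6 mice of 6 to 12 weeks. Naive cells were sorted fresh as TCRβ- B220+ IgM+ IgDhi B cells and received no treatment. The 3 h and 10 h cells were taken by bead-based negative selection, labelled with the division dye CellTrace Violet, cultured with 25 μg/ml lipopolysaccharide (LPS) from Salmonella typhosa, and sorted as TCRβ- CD69+ B cells that had not diluted the dye. LPS, culture, labelling, the way of isolation, the IgM and IgD gate and the CD69 gate therefore cannot be told apart in any difference from naive cells. The 3 h and 10 h cells shared isolation, labelling, gate and LPS dose, and differed in their time in culture with LPS. Which animals gave which library is not given in the sources used here, and p-values measure the spread between these libraries.

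LPS is bound by TLR4 with MD-2 on the B cell surface, and the signal passes through MyD88 and TRIF to NF-κB, MAP kinases and interferon regulatory factors. The first genes to respond are copied from promoters that are already open and need no new protein. Many of them encode transcription factors, unstable cytokine transcripts and the inhibitors that end the response, so that their transcripts rise and fall within hours. A resting B cell that is activated also enlarges, makes new ribosomes and leaves the follicle before it first divides.

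Total counts of the 6 libraries ran from 23026619, in 3h replicate 1, to 47757637, and 12750 of 23700 genes passed the filter on low counts. Calls were made with glmTreat of edgeR against a change of 1.5-fold, at a Benjamini-Hochberg adjusted p under 0.05 over all tested genes. A peak gene was called higher at 3 h than in naive cells and higher than at 10 h, and a trough gene lower than in both. Levels are RPKM, counts scaled to exon length and library total, and differences are log2 fold changes with standard errors (SE). Replicates were less alike at 3 h than at its neighbours, with an SD across genes of the log2 ratio of replicates of 0.529, against 0.385 in naive cells and 0.346 at 10 h. The shared estimate of the spread makes no allowance for the wider spread at 3 h. The B cell markers Cd79a, Cd79b, Ms4a1, Pax5 and Cd22 were present in every library, with summed levels of 6308 to 6447 RPKM in naive cells, 3248 to 3450 at 3 h and 2034 to 2045 at 10 h, and all but Cd79b were called lower at 3 h than in naive cells. Plasma cell markers summed to 145.6 to 152, 608 to 767.8 and 215.8 to 236 RPKM. The sum at 3 h was mostly Irf4, at 709 and 519 RPKM, which was the only peak gene of the 7, and 1 was a trough gene. In the mean contrast 2 of the 7 were higher, 1 lower and 4 not called, with a median of -0.0753. Markers of other cells were higher in the naive libraries. The summed level of 10 myeloid markers was 163.9 to 408.7 RPKM in naive cells, 0.895 to 1.78 at 3 h and 2.29 to 2.81 at 10 h. The 4 tested erythroid markers summed to 288 to 377, 0.0997 to 0.74 and 0.467 to 3.18 RPKM, and the 8 tested T cell markers to 2.75 to 3.28, 0.193 to 0.229 and 0.282 to 0.637 RPKM. Their part in genes lower at 3 h than in naive cells was not tested, and fewer cells of a type cannot be told apart from less RNA per cell.

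Against the mean of its neighbours, 2080 genes were higher at 3 h (16.3% of those tested) and 2332 were lower (18.3%). The equal-weight mean does not by itself show a peak, since a large step against a single neighbour is enough. Of the 2080 higher genes, 900 were called higher than both neighbours, 853 than naive cells only, 314 than 10 h only and 13 than neither. Of the 2332 lower genes, 1204 were lower than both, 771 than naive cells only, 355 than 10 h only and 2 than neither. Against naive cells alone, 2674 genes were higher (21.0%) and 3100 lower (24.3%), and against 10 h alone 1711 were higher (13.4%) and 2221 lower (17.4%). Both comparisons use the same 3 h libraries. The 900 peak genes were 7.06% and the 1204 trough genes 9.44% of the tested genes. When libraries were scaled by their totals alone, without TMM factors, the median of all genes in the mean contrast moved from -0.0285 to -0.296, higher and lower genes came to 1299 and 3266, and peaks and troughs to 503 and 1856. All 503 of those peaks were among the 900, and all 1204 troughs remained. The split between peaks and troughs is therefore relative to the TMM scale.

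**Figure D1:**
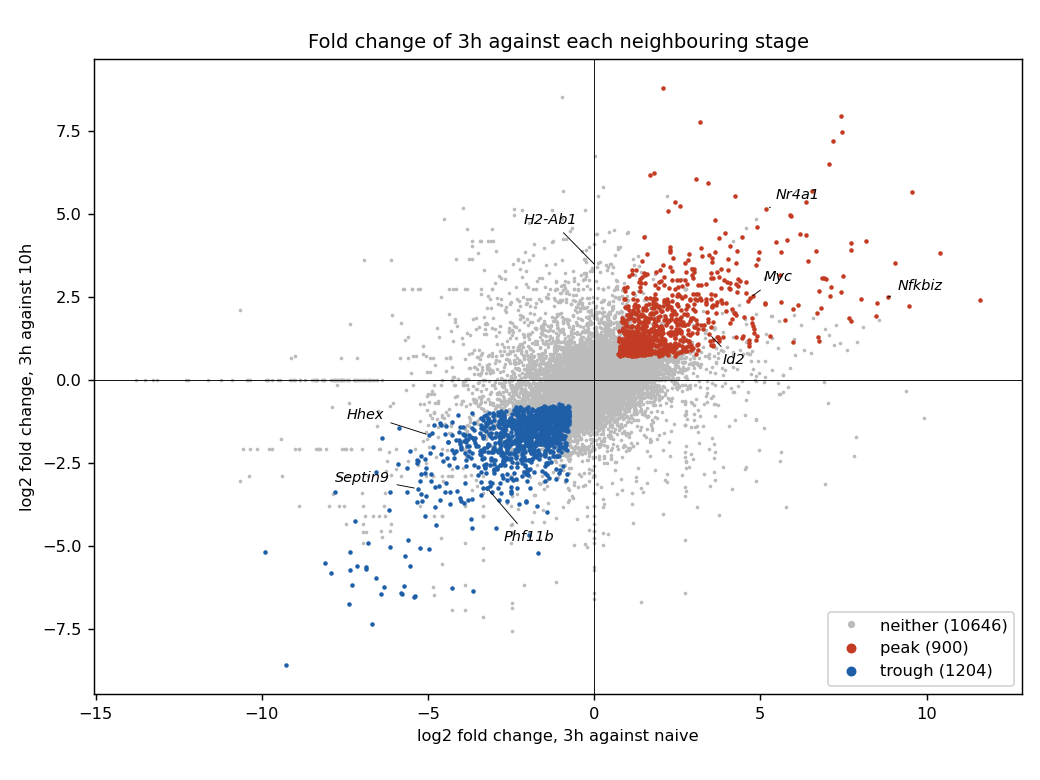
Each point is 1 of 12750 tested genes, with the log2 fold change of 3h against naive on the x axis and of 3h against 10h on the y axis. The 900 peak genes lie at the upper right and the 1204 trough genes at the lower left; both axes hold the same 3h libraries, and H2-Ab1 stands on the vertical zero line, not called against naive cells and above 10h.

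The median peak gene stood 1.76 above naive cells and 1.39 above 10 h on the log2 scale, and the median trough gene 1.82 below naive cells and 1.49 below 10 h. The smaller of both steps was over 2-fold for 611 peak genes, over 4-fold for 185 and over 8-fold for 59. For trough genes these counts were 986, 222 and 69. The comparison of 10 h with naive cells uses no 3 h library, but its libraries also entered the calls of peak and trough genes. A gene not called there was not shown to differ by over 1.5-fold, and need not have come back fully. Of the peak genes, 616 (68.4%) were not called between 10 h and naive cells, 224 (24.9%) stayed above naive cells and 60 (6.67%) were below them. Of the trough genes, 856 (71.1%) were not called, 297 (24.7%) stayed below naive cells and 51 (4.24%) were above them. Over all tested genes, 10 h was called above naive cells for 19.5% and below for 19.9%. At most 3 counts in both libraries were found in naive cells for 52 peak genes, at 10 h for 21 and at 3 h for 64 trough genes, and their fold changes are no more than a direction.

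The genes that mark the 3 h stage in this series, Nr4a1, Myc and Id2, were all peak genes. Nr4a1, an orphan nuclear receptor and immediate early gene of lymphocytes, was at 11.5 and 10.8 RPKM in naive cells, 495 and 308 at 3 h and 10.6 and 12.1 at 10 h. The 3 h libraries were far above the rest, and naive cells and 10 h overlapped. The log2 fold change was 5.17 (SE 0.32, adjusted p = 3.6e-07) against naive cells, 5.15 (SE 0.32, adjusted p = 1.1e-06) against 10 h and 5.16 (SE 0.24) against their mean. Myc, the transcription factor of growth and ribosome production, was at 31.1 and 28.9 RPKM, then 835 and 706, then 138 and 139. It came down only in part, with 10 h above naive cells by 2.21 on the log2 scale (adjusted p = 3.7e-08), and its contrast against the mean was 3.58 (SE 0.10). Id2, an inhibitor of the E proteins that bind DNA in B cells, was at 3.07 and 2.83, then 29.3 and 35.6, then 12.7 and 12.1 RPKM. Its step down to 10 h was the smallest of these genes, at 1.39 (SE 0.17, adjusted p = 0.00025). After 10 h the levels of all 3 fell further or stayed low, with means of 7.09, 76.3 and 7.58 RPKM at 33 h.

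Promoters, from 250 bases before to 50 after the start, are printed for the marker genes with an entry, for the peak and trough genes with the largest steps, and to show which letters were searched. They are RefSeq sequences of build GRCm38.p6 on the strand of the gene, and 9919 of the tested genes had one. Capitals mark matches on either strand to the NF-κB site in a short form (GGGAANNNC), the core of the interferon-stimulated response element or ISRE (GAAANNGAA), the AP-1 site (TGANTCA), the CRE (TGACGTCA), the E-box (CACGTG) and the TATA box (TATAAA). Nr4a1 lies at chr15:101266596-101266895 on the plus strand, Id2 at chr12:25096043-25096342 on the minus strand, Dusp5 at chr19:53528895-53529194 on the plus strand, Septin9 at chr11:117199411-117199710 on the plus strand and Phf11b at chr14:59341281-59341580 on the minus strand.
Nr4a1: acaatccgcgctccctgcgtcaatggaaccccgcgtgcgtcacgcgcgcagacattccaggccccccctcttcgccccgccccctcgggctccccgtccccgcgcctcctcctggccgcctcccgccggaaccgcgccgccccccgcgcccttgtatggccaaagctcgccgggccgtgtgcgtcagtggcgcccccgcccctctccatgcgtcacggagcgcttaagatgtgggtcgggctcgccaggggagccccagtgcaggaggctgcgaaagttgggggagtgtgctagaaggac
Id2: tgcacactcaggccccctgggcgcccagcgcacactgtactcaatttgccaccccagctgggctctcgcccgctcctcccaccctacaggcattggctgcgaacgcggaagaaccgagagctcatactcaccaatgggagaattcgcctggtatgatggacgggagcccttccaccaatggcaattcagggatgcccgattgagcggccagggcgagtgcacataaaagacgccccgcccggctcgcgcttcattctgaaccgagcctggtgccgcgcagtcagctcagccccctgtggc
Dusp5: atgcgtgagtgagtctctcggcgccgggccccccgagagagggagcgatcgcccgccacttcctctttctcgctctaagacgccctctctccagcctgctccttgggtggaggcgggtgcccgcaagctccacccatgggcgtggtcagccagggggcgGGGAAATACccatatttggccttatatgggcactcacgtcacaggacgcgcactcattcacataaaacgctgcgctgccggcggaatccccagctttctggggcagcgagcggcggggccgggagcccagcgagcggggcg
Septin9: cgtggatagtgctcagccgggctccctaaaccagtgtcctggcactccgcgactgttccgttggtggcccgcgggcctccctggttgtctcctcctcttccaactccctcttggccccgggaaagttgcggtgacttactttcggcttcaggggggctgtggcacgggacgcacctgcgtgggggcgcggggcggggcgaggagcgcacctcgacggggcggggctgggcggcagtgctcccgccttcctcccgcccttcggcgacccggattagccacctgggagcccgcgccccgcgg
Phf11b: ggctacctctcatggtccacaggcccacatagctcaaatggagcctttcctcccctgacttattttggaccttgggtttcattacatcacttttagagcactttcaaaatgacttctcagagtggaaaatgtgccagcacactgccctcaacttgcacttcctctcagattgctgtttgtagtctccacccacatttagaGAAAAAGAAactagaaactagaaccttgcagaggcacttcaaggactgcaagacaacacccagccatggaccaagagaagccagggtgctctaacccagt
Dusp5 holds an NF-κB form 91 bases before its start and Phf11b an ISRE core 50 bases before it, whereas none of these letters are in the windows of Nr4a1, Id2 and Septin9.

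Across promoters, the NF-κB form was in 24.6% of 714 peak promoters, 19.8% of 980 trough promoters and 22% of all, so that the shares lay near each other. Among 21 promoters of NF-κB subunits, inhibitors and brakes, 11 held it (52.4%). The ISRE core was in 9.69% of trough promoters, 4.34% of peak promoters and 7.29% of all, and in 16 of 29 promoters of interferon-stimulated genes (55.2%). The GC box (GGGCGG) was in 74.1% of peak, 59.2% of trough and 63.6% of all promoters, and the median GC content was 64.3%, 59.3% and 60.7%, so that both measures share the base composition. The E-box, which the Myc protein binds, was in 11.3%, 9.49% and 10.2%. A match is a description of these letters and no evidence of binding.

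The 12 peak genes with the largest smaller step, among well expressed genes, included Nr4a1, inhibitors of signalling, surface proteins and regulators of survival. Dusp5, a phosphatase that switches off ERK in the nucleus, was at 6.96 and 6.48 RPKM in naive cells, 115 and 89.2 at 3 h and 5.09 and 4.46 at 10 h. Its log2 fold change was 3.92 (SE 0.26, adjusted p = 1.9e-07) against naive cells and 4.41 (SE 0.26, adjusted p = 2.8e-07) against 10 h. Il4i1, a secreted amino acid oxidase, went from 7.04 and 6.88 to 87.8 and 73.8 and back to 6.19 and 6.48 RPKM. For both genes 10 h was not called against naive cells, and both 10 h libraries were slightly below both naive libraries.

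Nfkbid, a nuclear IκB protein, was at 29.1 and 31.1, then 530 and 315, then 46.1 and 36.7 RPKM. Icam1, an adhesion molecule that binds LFA-1, was at 32.8 and 31.5, then 483 and 354, then 46.4 and 41.6 RPKM. Zhx2, a homeobox repressor, was at 10.9 and 10.6, then 141 and 103, then 11.8 and 14.3 RPKM. For these, the 3 h replicates differed more than those of the neighbours, replicate 1 being the higher, but both stood above every other library.

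Bcl2l1, which encodes the survival protein Bcl-xL, rose from 3.21 and 3.37 to 435 and 356 RPKM and was at 43.5 and 50.6 at 10 h. Its step up of 6.91 (SE 0.21) exceeded its step down of 3.07 (SE 0.17), and 10 h stayed 3.84 above naive cells (adjusted p = 1.3e-08). Marcksl1, which binds actin and calmodulin, reached 1833 and 1541 RPKM from 83 and 84.9, with 235 and 175 at 10 h. Cd83, a surface protein that stabilises MHC class II, reached 1885 and 1579 RPKM from 106 and 110, with 227 and 221 at 10 h. These 2 genes had the highest 3 h levels of the 12.

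Cd69, a lectin that holds lymphocytes in tissue, was at 35.2 and 32.5, then 269 and 263, then 30.4 and 33.2 RPKM. Its protein was part of the sort at 3 h and at 10 h. The part of this gate in the step from naive cells was not tested, while the step of 3.07 (SE 0.19) between 3 h and 10 h lies between cells of 1 gate. Kdm6b, which removes methyl groups from lysine 27 of histone H3, was at 12.3 and 10.6, then 261 and 181, then 26.9 and 32.6 RPKM. Optn, an adaptor of ubiquitin chains and autophagy, was at 3.38 and 3.47, then 37.1 and 32.8, then 5.06 and 4.43 RPKM. All 12 genes kept both calls under DESeq2's size factors and under library size alone.

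**Figure D2:**
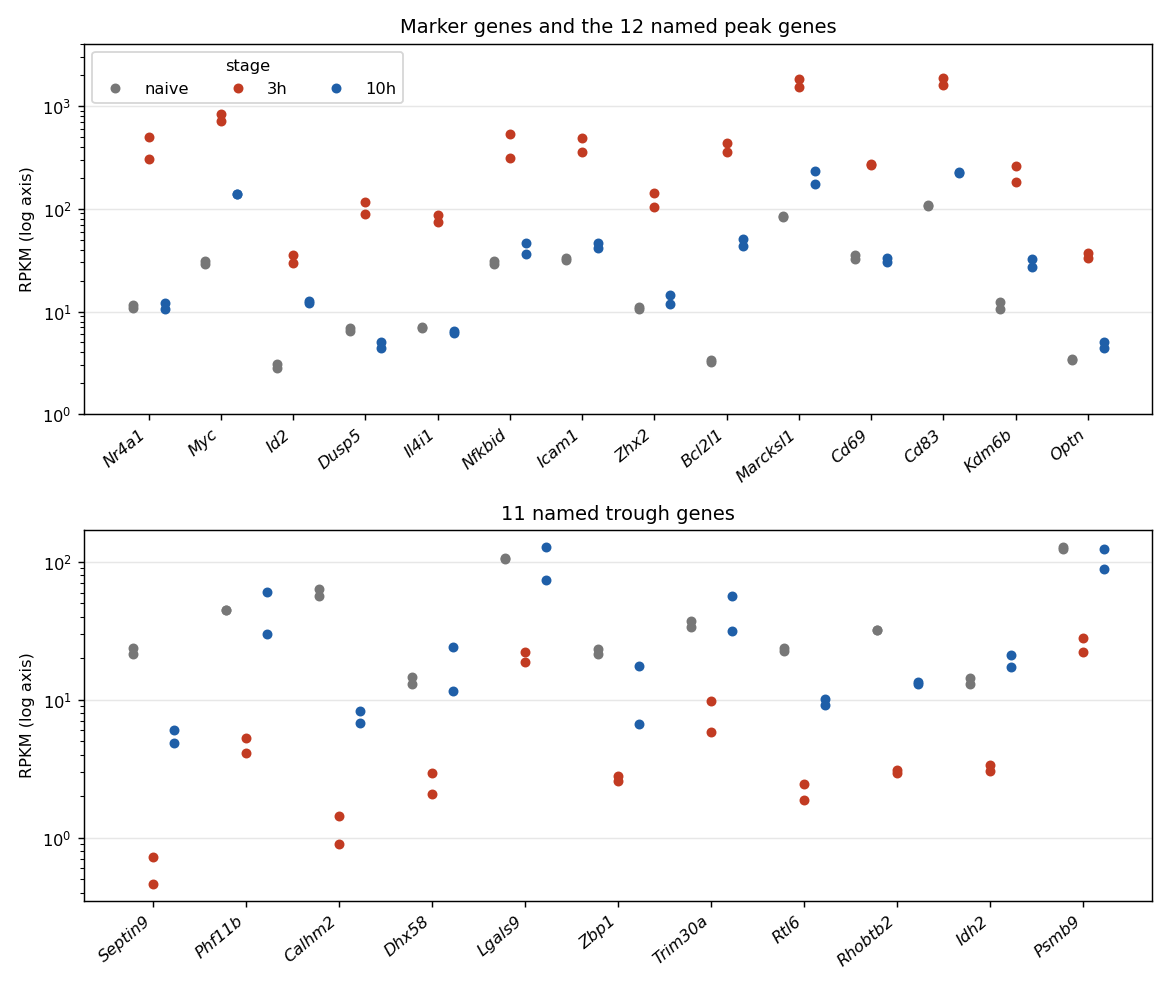
RPKM on a log axis in each of the 6 libraries (2 points per stage) for the marker genes with the 12 named peak genes (upper panel) and for 11 named trough genes (lower panel). In the upper panel every 3h point is above the naive and 10h points of its gene, and in the lower panel every 3h point is below them, with 10h replicates far apart for Phf11b, Dhx58, Zbp1 and Trim30a.

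Of 33 tested immediate early genes, 16 were peak genes (48.5%) and none a trough gene, against 7.06% and 9.44% of all genes. The median of the list was 1.62 against the mean of the neighbours, beside -0.0285 for all genes. The nuclear receptors rose together. Nr4a3 was at 0.658 and 0.844 RPKM, then 80.5 and 44.4, then 1.43 and 1.57. Nr4a2 had no counts in naive cells, 1.82 and 1.18 RPKM at 3 h and 0.0683 and 0.142 at 10 h. Members of AP-1 did not share a pattern. Fosl1 was at 0 in naive cells, 1.57 and 1.46 RPKM at 3 h and 0.28 and 0.372 at 10 h, and Fosl2, Jun and Junb were peak genes too. Junb rose from a mean of 76.4 to 429 RPKM and was at 74.3 at 10 h. Fos and Fosb were at 3.29 and 1.57 RPKM in naive cells, 2.57 and 1.56 at 3 h and 0.166 and 0.0895 at 10 h, a fall from 3 h to 10 h with no call from naive cells to 3 h. Egr2 and Egr3 were also called lower at 10 h than at 3 h but not between naive cells and 3 h, with means of 4.21, 4.57 and 0.663 RPKM for Egr2 and 75.3, 50.8 and 9.7 for Egr3. Atf3 and Rgs16 rose at 3 h and were higher still at 10 h, with log2 fold changes of 3 h against 10 h of -1.74 and -1.56. The 3 h replicate 1 was above replicate 2 for 29 of these 33 genes, and the list held 16 peak genes when each of the 6 libraries was left out in turn.

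NF-κB subunits are held in the cytoplasm by IκB proteins until TLR4 signals, and many of their genes and of the genes of their inhibitors peaked. Of 25 subunits, inhibitors and brakes, 14 were peak genes (56%), none was a trough gene and the median was 1.44 against naive cells and 0.913 against 10 h. All 5 subunits were peak genes. Rel went from a mean of 31.4 RPKM to 176 and back to 36.2, Nfkb1 from 94 to 544 to 190, and Nfkb2 from 112 to 420 to 154. Rela and Relb had the smallest steps of the subunits, at 1.29 and 1.65 against naive cells and 1.27 and 1.34 against 10 h. Among the inhibitors, Nfkbiz, a nuclear IκB that drives secondary response genes, was at 1.20 and 1.01 RPKM, then 545 and 468, then 88.5 and 90.8. Its step up was 8.83 (SE 0.16) and its step down 2.50 (SE 0.11, adjusted p = 2e-08), so that 10 h stayed 6.33 above naive cells. Nfkbia, the IκB that resets the cytoplasmic pool, was at means of 145, 862 and 246 RPKM. Tnfaip3, the A20 ubiquitin editor that ends the signal, was at 10.3 and 9.75, then 235 and 162, then 30.5 and 32.7 RPKM. The kinase genes Chuk and Ikbkb were not called in either step. With library size alone, 11 members remained peak genes.

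The phosphatases that dephosphorylate MAP kinases, with the Sprouty and Spred inhibitors of the pathway, gave 8 peak genes of 15 tested (53.3%) and no trough gene. Besides Dusp5, these were Dusp2, Dusp4, Dusp8, Dusp14, Dusp16, Spry1 and Spred1. In the mean contrast 11 were higher (73.3%, beside 16.3% of all genes) and 2, Dusp6 and Dusp10, lower (13.3%, beside 18.3%). Dusp6 was at means of 25.1, 1.44 and 1.99 RPKM, with a step of -4.18 against naive cells and no call against 10 h. Library size alone gave 6 peak genes and 1 trough gene. Dusp14 had 0 and 1 counts in naive cells, 6.49 and 3.78 RPKM at 3 h and 1.45 and 1.15 at 10 h. The 3 h replicate 1 was the higher in all 15 genes, and the count was 5 without it. Of 28 factors of mRNA decay, 5 were peak genes (17.9%) and 2 trough genes (7.14%). Zc3h12a, the Regnase-1 nuclease that cuts cytokine transcripts, was at 3.78 and 3.54, then 271 and 190, then 52.2 and 52.2 RPKM. Zfp36l1, which recruits the deadenylase to AU-rich elements, rose from 139 and 141 to 572 and 451 and was below naive cells in both libraries at 10 h (86.8 and 103 RPKM), a difference that was not called. The other peak genes of the list were Zc3h12c, Rc3h1 and Cnot4, and the trough genes Zc3h12d and Parn. The count of peak genes was 2 without 3h replicate 1 and also without 10h replicate 1, and 8 without 3h replicate 2, and it was 2 with library size alone.

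Cytokines differed in their timing. Of 24 tested cytokines and chemokines, 6 were peak genes (25%) and 1 a trough gene. Ccl4 and Ccl3, chemokines that attract leukocytes, were at 0.448 and 0.235 and at 0.224 and 0.0982 RPKM in naive cells. At 3 h they were at 35.3 and 38.6 and at 24.9 and 23.8, and at 10 h at 2.83 and 2.16 and at 3.76 and 3.25 RPKM. Tnf rose from a mean of 1.6 to 30.4 and was at 7.5 RPKM at 10 h, and Il1b, Cxcl16 and Tgfb1 were the remaining peak genes. Il6 and Ccl22 rose at both steps, with log2 fold changes of 3 h against 10 h of -3.82 and -4.07, and were not called in the mean contrast. Il10 rose from a mean of 0.0148 RPKM to 10.4 and was at 13.2 at 10 h, with no call between the latter, and its call in the mean contrast comes from the naive step. Ccl5 was the trough gene, at 8.55 and 5.47 RPKM in naive cells, 0.419 and 0 at 3 h and 18.1 and 11.9 at 10 h.

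Cytokine signalling genes differed within the STAT family. Stat3, Stat4, Stat5a and Stat6 were peak genes, and Stat2 was a trough gene. Stat4 was at 30.5 and 28.7 RPKM, then 125 and 103, then 14.5 and 14.8, and its level at 10 h was below naive cells (log2 fold change -1.02, adjusted p = 0.00036). Stat6, which serves the IL-4 receptor, was at means of 103, 284 and 84.8 RPKM, and Stat3 at 51.2, 146 and 49.6. Pim1, a kinase gene that STAT proteins induce, was at 25.3 and 23.9, then 1140 and 577, then 149 and 206 RPKM. Its 3 h replicates were far apart, yet both were above all other libraries. In all, 8 of 19 STAT, SOCS, PIAS and PIM genes were peak genes (42.1%), or 5 without 10h replicate 2 and 5 with library size alone. Socs1 was not called in any step.

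Of 6 genes of the E protein and Id family, Id1 and Id2 were peak genes while Id3 fell. Id1 was at 0.13 and 0.213 RPKM, then 14.9 and 10.4, then 0.57 and 0.609. Id3 was at 131 and 146, then 39.9 and 29.7, then 58.7 and 60.2 RPKM. It fell by 2.00 from naive cells (SE 0.13, adjusted p = 1.5e-07), and its difference of -0.78 against 10 h was not called (adjusted p = 0.067) but was called with library size alone. The E protein gene Tcf12 was a peak gene, with steps of 1.20 and 1.06. Tcf3 and Tcf4, the main E proteins of B cells, were not called, with mean levels of 97.6, 76.9 and 87 RPKM for Tcf3.

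Among surface genes of activation and costimulation, 12 of 27 were peak genes (44.4%) and 2 trough genes. Il2ra, the alpha chain of the IL-2 receptor, rose from 0.894 and 0.832 to 159 and 141 RPKM and was at 22.5 and 25.5 at 10 h. Cd86, the ligand of CD28, was at means of 13.6, 117 and 35.8 RPKM, and Cd40 at 45.4, 184 and 71.1. Cd80, the other CD28 ligand, did not peak and went from 0.161 to 1.48 to 5.65 RPKM. Tlr4, the LPS receptor itself, was at 6.96 and 6.74 RPKM in naive cells, 0.029 and 0.205 at 3 h and 1.69 and 1.13 at 10 h. It fell by 5.64 from naive cells (SE 0.35, adjusted p = 4.2e-08) and was below 10 h too (log2 fold change -3.37, SE 0.38, adjusted p = 2.9e-05). Myeloid cells carry Tlr4 too, and their markers were higher in the naive libraries. Between 3 h and 10 h their summed level moved the same way as Tlr4, from 0.895 to 1.78 up to 2.29 to 2.81 RPKM, and their part in either step was not tested. Tnfrsf13b, which encodes the receptor TACI, was the other trough gene, at means of 184, 70.2 and 393 RPKM.

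The Bcl2 family gave 4 peak genes and 4 trough genes of 18 tested (22.2% each). The peak genes, Bcl2l1, Bcl2a1a, Bcl2a1b and Bcl2a1d, all encode proteins that prevent apoptosis. Bcl2a1b was at 39.2 and 45.4, then 859 and 1052, then 256 and 258 RPKM. The Bcl2a1 genes are near-identical copies, so that counts may be split between them. Bcl2 itself was a trough gene, at means of 19.5, 3.64 and 9.39 RPKM, as were Bcl2l2, also protective, the BH3-only gene Bad and Bcl2l12. Bbc3, which encodes the killer protein PUMA, rose at both steps, from 1.93 to 19 to 49.7 RPKM. Bcl2a1d was no longer a peak gene with library size alone.

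Of the 11 named trough genes, Septin9, a cytoskeletal GTPase, had the largest smaller step. It was at 23.6 and 21.4 RPKM in naive cells, 0.719 and 0.462 at 3 h and 6.08 and 4.84 at 10 h, and the log2 fold change was -5.31 (SE 0.24, adjusted p = 3.3e-09) against naive cells and -3.27 (SE 0.23, adjusted p = 9.7e-07) against 10 h. It was at 17.4 RPKM by 33 h. Calhm2, a channel gene, fell from 63.6 and 56.9 to 0.898 and 1.43 and was at 8.34 and 6.83 RPKM at 10 h. Rhobtb2, which encodes a protein with BTB domains, went from 32 and 32 to 3.08 and 2.93 and then to 13.1 and 13.5 RPKM. Rtl6, derived from a retrotransposon, went from 22.5 and 23.7 to 1.88 and 2.44 and then to 9.23 and 10.2 RPKM. These 4 genes came back only in part, and 10 h was called below naive cells for each.

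Phf11b, a gene of the interferon-inducible Phf11 family with close copies, was at 44.7 and 44.9, then 4.12 and 5.28, then 60.1 and 29.9 RPKM. Dhx58, which encodes the RNA sensor LGP2, was at 14.5 and 12.9, then 2.08 and 2.95, then 24.2 and 11.5 RPKM. In both of them 10 h replicate 1 was above the naive level and replicate 2 below it, and 3 h was below all other libraries. Zbp1 (23.5 and 21.3, then 2.58 and 2.79, then 17.6 and 6.65 RPKM) and Trim30a (37 and 34, then 5.82 and 9.77, then 56.6 and 31.5 RPKM) had the same split at 10 h, Zbp1 staying below naive cells in both. Zbp1 had the least certain step of the 11, at -2.18 against 10 h (SE 0.39, adjusted p = 0.0031).

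Lgals9, a galectin, was at 107 and 104, then 18.9 and 22.3, then 128 and 74.5 RPKM. Psmb9, a subunit of the immunoproteasome, was at 124 and 128, then 22.1 and 27.9, then 124 and 89.4 RPKM. Idh2, the mitochondrial isocitrate dehydrogenase, was at 13 and 14.5, then 3.04 and 3.35, then 21 and 17.4 RPKM and went on to 72.8 in plasmablasts. For all 3, 10 h was not called against naive cells. All 11 genes kept both calls under both other scalings.

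Of 37 tested interferon-stimulated genes, 15 were trough genes (40.5%, beside 9.44% of all) and none was a peak gene. In the mean contrast 26 were called lower (70.3%, beside 18.3% of all genes), and the median was -1.6. Xaf1 was at 6.54 and 5.51, then 0.343 and 0.556, then 7.85 and 3.26 RPKM. Oas3, which makes the activator of RNase L, was at 5.03 and 4.33, then 0.236 and 0.369, then 4.17 and 1.17 RPKM. Cmpk2 fell from 14.4 and 12.4 to 0.21 and 0.587 and was at 2.72 and 1.18 RPKM at 10 h. The regulators Stat2 and Irf9 had means of 26.5, 3.78 and 11.9 RPKM and of 65.5, 24.1 and 46.1, the latter called lower than naive cells but not than 10 h (adjusted p = 0.065). Not all members fell. Isg15 rose by 2.32 from naive cells (adjusted p = 1.2e-06) and was the only member of the list called higher in the mean contrast, a call that was lost without either naive library, without 3h replicate 1 or without 10h replicate 2. Ifit1, Oasl1 and Ifih1 were at 2.58, 13.8 and 1.27 RPKM in naive cells and 3.68, 21.8 and 1.89 at 3 h, with no call between these stages, and rose by 10 h to 19.4, 122 and 6.43.

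The extent of the return at 10 h differed between its replicates for this list. Replicate 1 was above replicate 2 for 34 of 37 genes, with a median log2 ratio of 0.954, beside 0.00858 over all tested genes. Relative to naive cells, the median member was at -2.02 and -1.53 in the 3 h replicates, 0.136 in 10h replicate 1 and -0.79 in 10h replicate 2. At 3 h, replicate 2 was the higher for all but 7 of the 37, with a median log2 ratio of -0.524. The count of trough genes was 9 without 3h replicate 1, 11 without 10h replicate 1, 24 without 10h replicate 2 and 23 with library size alone, so that the trough was present in each fit while its extent depends on single libraries.

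**Figure D3:**
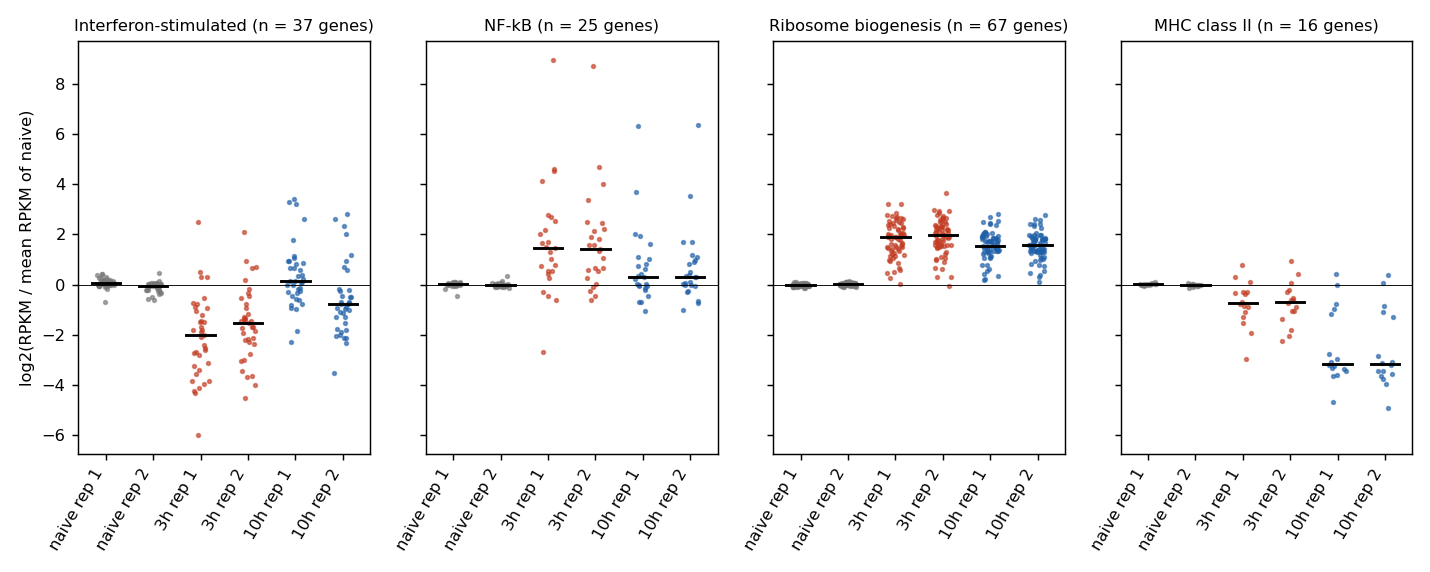
Log2 ratio of each gene's RPKM to its naive mean in the 6 libraries for interferon-stimulated genes (37), NF-κB subunits, inhibitors and brakes (25), ribosome biogenesis (67) and MHC class II presentation (16), with a bar at the median and 0 drawn as 0.01 RPKM. The interferon panel dips at 3h and its 10h replicates differ (0.136 and -0.79), the NF-κB panel rises to 1.44 and 1.43 at 3h and returns to 0.298 and 0.292, ribosome biogenesis stays up at 1.54 and 1.56, and MHC class II drops to -3.16 and -3.17 at 10h.

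Genes of the B cell receptor and its coreceptors gave 8 trough genes (22.9%) and 1 peak gene of 35 tested. Cd22, the inhibitory lectin of the receptor, was at 413 and 414, then 38.2 and 40.1, then 89.5 and 81.4 RPKM. Cd38, an ectoenzyme and coreceptor, was at 79 and 74.3, then 4.91 and 4.21, then 14.4 and 12.5 RPKM. Rasgrp3, Dapp1, Fcgr2b, Vav1 and Prkcb were trough genes too. Fyn, a Src kinase gene, went the other way, from 17.5 and 15.7 to 93.9 and 74.7 and then to 9.06 and 8.21 RPKM. Cd79a fell at both steps, from 2442 to 1043 to 459 RPKM, and was not called in the mean contrast.

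Among 22 transcription factors of B cell identity, Irf4 and Irf8 were peak genes (9.09%) and Hhex a trough gene (4.55%), near the shares of all genes. Against naive cells 10 of the 22 were lower and 3 higher, beside 24.3% and 21.0% of all genes. In the mean contrast 5 were lower (22.7%, beside 18.3% of all genes) and 4 higher (18.2%, beside 16.3%). Trough genes came to 3 without 3h replicate 2 and 2 with library size alone. Irf4, whose level steers plasma cell fate, was at 54.1 and 52.2, then 709 and 519, then 128 and 136 RPKM, and reached 266 in plasmablasts. Irf8 was at 178 and 189, then 441 and 463, then 170 and 171 RPKM. Hhex was at 106 and 115, then 4.28 and 2.97, then 10.7 and 11.7 RPKM. The median of the list was 0.0964, of the other sign with library size alone (-0.177). Of 35 genes of quiescence and homing, 4 were peak genes (11.4%) and 1, Rbl2, a trough gene (2.86%). Against naive cells 18 of the 35 were lower and 4 higher, beside 24.3% and 21.0% of all genes, with a median of -0.952. In the mean contrast 14 were lower (40%, beside 18.3% of all genes) and 8 higher (22.9%, beside 16.3%). Trough genes came to 0 without 3h replicate 2, 2 without 3h replicate 1 and 4 with library size alone, and lower genes in the mean contrast to 9 without 3h replicate 2. Receptors that guide B cells to the T cell border rose, with Ccr7 at 182 and 159, then 1056 and 1067, then 310 and 366 RPKM, and Gpr183 at 60.4 and 59.1, then 166 and 156, then 13.3 and 13.3. Cxcr5 and Ptger4 were the other peak genes. S1pr1, the egress receptor, fell from 158 and 161 to 9.77 and 10.7 and stayed low at 14.5 and 17.4 RPKM, with no call between 3 h and 10 h (adjusted p = 0.39). The median of this list was -0.0263, and 0.00581 with DESeq2's size factors.

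Some lists were called in the mean contrast mainly through a single neighbour. Of 67 ribosome biogenesis genes, 53 were called higher in the mean contrast (79.1%, beside 16.3% of all genes). Higher than naive cells were 62 of the 67, a larger share than the 21.0% of all genes, while 10 were peak genes (14.9%, beside 7.06%). Polr1b, a subunit of RNA polymerase I, was at 16.6 and 15.9, then 104 and 128, then 58.3 and 55.8 RPKM. Nolc1, a nucleolar chaperone, was at 40.1 and 39.1, then 273 and 251, then 131 and 138 RPKM. Rrp1b was at 4.54 and 5.19, then 44.9 and 61.1, then 34.2 and 33 RPKM, with no call against 10 h (adjusted p = 0.29). With library size alone, none of the 67 was a peak gene. The median of the list was 1.95 against naive cells and 0.366 against 10 h.

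Of 16 genes of MHC class II presentation, 5 were called higher in the mean contrast (31.2%, beside 16.3% of all genes). Higher than 10 h were 11 of the 16, a larger share than the 13.4% of all genes. Against naive cells 7 of the 16 were lower and 1 higher, beside 24.3% and 21.0% of all genes. The median of the list was -0.731 against naive cells and 2.1 against 10 h. H2-DMa, H2-DMb1, H2-DMb2, H2-Oa and H2-Eb2 were among the genes lower than naive cells, whereas the classical class II chains were not called. H2-Ab1 was at 4817 and 4752 RPKM in naive cells, 5096 and 5011 at 3 h and 513 and 437 at 10 h. H2-Aa was at 7786 and 7794, then 6308 and 6791, then 619 and 496 RPKM. The log2 fold changes of H2-Ab1, H2-Aa and H2-Eb1 were 0.08, -0.25 and -0.29 against naive cells, with no call, and 3.41, 3.55 and 3.21 against 10 h. Their calls in the mean contrast (1.75, 1.65 and 1.46) thus come from the fall between 3 h and 10 h, and with an arithmetic mean of the neighbours the contrasts are 0.94, 0.65 and 0.585. Ciita, the coactivator that the class II genes need, fell from a mean of 135 RPKM to 23 at 3 h and 15.3 at 10 h. Ifi30, a thiol reductase of antigen processing, was the only peak gene of the 16 (6.25%), at 411, 751 and 217 RPKM, and was not one without 3h replicate 2 or with library size alone.

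Cholesterol genes split. Of 24 tested, 5 were peak genes, among them Hmgcs1, Cyp51 and Insig1, and 2 were trough genes. These were 20.8% and 8.33%, beside 7.06% and 9.44% of all genes. Insig1, which retains the SREBP complex, was at 7.6 and 8.16, then 82.3 and 86, then 23.2 and 27.3 RPKM. Hmgcs1 was at 12.3 and 12.9, then 122 and 206, then 61 and 73.6 RPKM. Mvk and Pmvk, enzymes of the same mevalonate pathway, were trough genes, at -1.47 and -1.11 against naive cells and -2.78 and -1.48 against 10 h. Apoe was not called between naive cells and 3 h (310 and 239, then 366 and 463 RPKM) and fell to 18 and 18.3. The 3 h replicate 2 was above replicate 1 for 20 of the 24, and the list held 10 peak genes without replicate 1 and 3 without replicate 2 and also without 10h replicate 1. With library size alone it held 2.

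Of 31 DNA replication genes, 3 were trough genes (9.68%, beside 9.44% of all) and 2 peak genes (6.45%, beside 7.06%). Lower at 3 h than at 10 h were 17 of the 31, a larger share than the 17.4% of all genes. Gins2 was at 3.67 and 3.36, then 1.61 and 1.8, then 12.9 and 9.6 RPKM and at 53.6 by 33 h, and Tyms at 0.683 and 0.56, then 0.278 and 0.31, then 2.37 and 1.78. Without naive replicate 1, no gene of the list was a trough gene, and without 3h replicate 1 none was a peak gene. Peak genes came to 1 without naive replicate 1, 3h replicate 2 or 10h replicate 2. Library size alone gave 0 peak genes, 5 trough genes and 15 genes lower in the mean contrast in place of 9. Of 21 mitosis genes, 4 were trough genes (Plk1, Aurkb, Cenpe and Cenpf) and Foxm1 a peak gene. These were 19% and 4.76% of the list, beside 9.44% and 7.06% of all genes. In the mean contrast 57.1% were lower, beside 18.3% of all. Library size alone gave 8 trough genes and 0 peak genes, and DESeq2's size factors gave 8 lower calls in the mean contrast. Aurkb, a kinase of chromosome segregation, was at 6.72 and 6.56, then 1.42 and 1.48, then 4.77 and 4.16 RPKM. Lower calls of this list in the mean contrast came to 12, and to 3 without either 3 h replicate. Its trough genes came to 2 without 3h replicate 1 and 1 without 3h replicate 2, and Foxm1 was a peak gene only while both naive libraries and 3h replicate 1 were kept. Of 28 G1 genes, Ccnd2 and Cdkn1c were peak genes (7.14%, beside 7.06% of all) and Ccne1, Rbl1, Rbl2 and E2f8 trough genes (14.3%). There was 1 peak gene without 10h replicate 1, and there were 2 trough genes without naive replicate 2 and 2 without 3h replicate 2. Ccnd2, the D cyclin that B cells need to enter the cycle, was at 24.8 and 24.6, then 321 and 274, then 140 and 115 RPKM. Ccne1, the cyclin of the G1 to S step, was at 3.82 and 3.43, then 0.485 and 0.705, then 3.35 and 2.35 RPKM.

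Of 11 genes of the Myc, Max and Mxd network, Myc was the peak gene and Mlx the trough gene (9.09% each), with 2 peak genes without 3h replicate 2. Of 22 heat shock and stress genes, Hspa1a, Hspa1b and Hspb1 were peak genes (13.6%) and Ddit4 a trough gene, which it was not without 3h replicate 1 or without 10h replicate 1. Hspa1a was at 0.201 and 0.222, then 1.67 and 2.3, then 0.156 and 0.142 RPKM, and is a near-identical copy of Hspa1b. Chac1 illustrates a call that rests on a single library, at 0.995 and 12 RPKM in the 3 h replicates and 7.78 and 10.3 at 10 h. Of 15 clock genes, Per2, Bhlhe40, Nr1d2 and Clock were peak genes and Bhlhe41 and Dbp trough genes, and neither of the latter was a trough gene without 3h replicate 1, and 1 of them without naive replicate 2. Peak genes were 26.7% and trough genes 13.3% of the clock list, beside 7.06% and 9.44% of all genes. Bhlhe40, a repressor of clock genes, was at 20.2 and 20.3, then 254 and 212, then 41.7 and 44.7 RPKM. Of 21 elongation factors, Ell2, which promotes secretory transcripts in plasma cells, was the only peak gene (4.76%, beside 7.06% of all). It was at 9.76 and 9.27, then 29.6 and 18.5, then 9.37 and 9.67 RPKM. It reached 197 RPKM in plasmablasts, and without 3h replicate 1 its mean contrast was not called (adjusted p = 0.0693). The list held 0 peak genes without 3h replicate 1 and 3 without 3h replicate 2. Genes whose symbols start with Zfp, a group of zinc finger genes defined by name alone, gave 44 trough genes and 14 peak genes of 316, or 13.9% and 4.43%. Their peak genes came to 7 without 3h replicate 1 and 8 without 10h replicate 1, and library size alone gave 67 trough genes and 5 peak genes. No cytosolic ribosomal protein gene of 80 was a peak or trough gene.

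**Figure D4:**
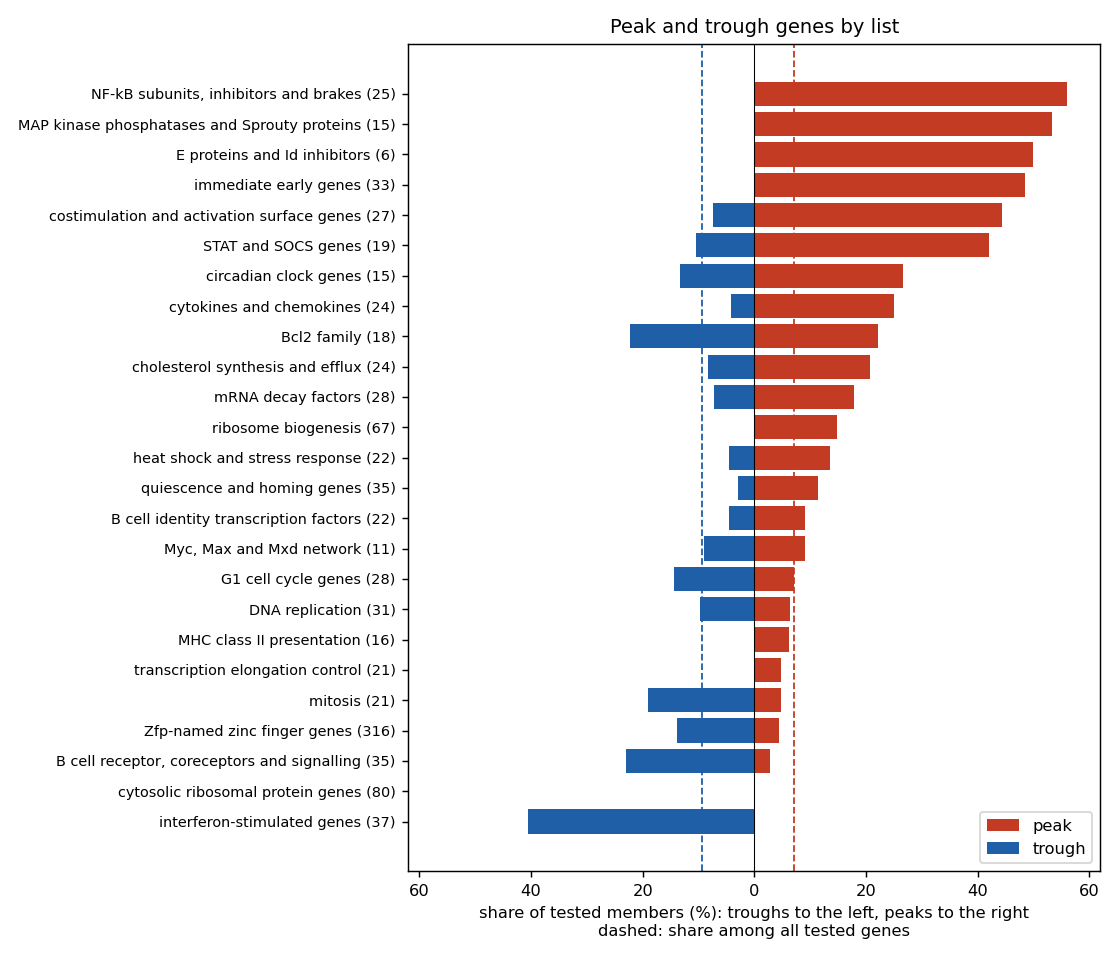
Share of the tested members of each list that were peak genes (bars to the right) or trough genes (bars to the left), with the number tested in brackets and dashed lines at the shares among all tested genes (7.06% and 9.44%). NF-κB genes (56%), MAP kinase phosphatases (53.3%) and immediate early genes (48.5%) have the longest bars to the right among lists of over 10 genes, and interferon-stimulated genes (40.5%) the longest to the left.

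Stages outside the rule show where the genes went later. Against naive cells, the median peak gene was at 0.336 on the log2 scale at 10 h, 0.157 at 33 h, 0.0681 in activated cells on day 4 and 0.0691 in plasmablasts. The median trough gene was at -0.284, -0.151, -0.165 and -0.143. At 33 h, 19.8% of peak genes were over 2-fold above naive cells, as were 19.7% of all tested genes. Single genes differed from this course. Bcl2l1 went from 30 RPKM at 33 h to 110 in plasmablasts, Pim1 from 132 to 344 and Dusp5 from 3.39 to 39.

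**Figure D5:**
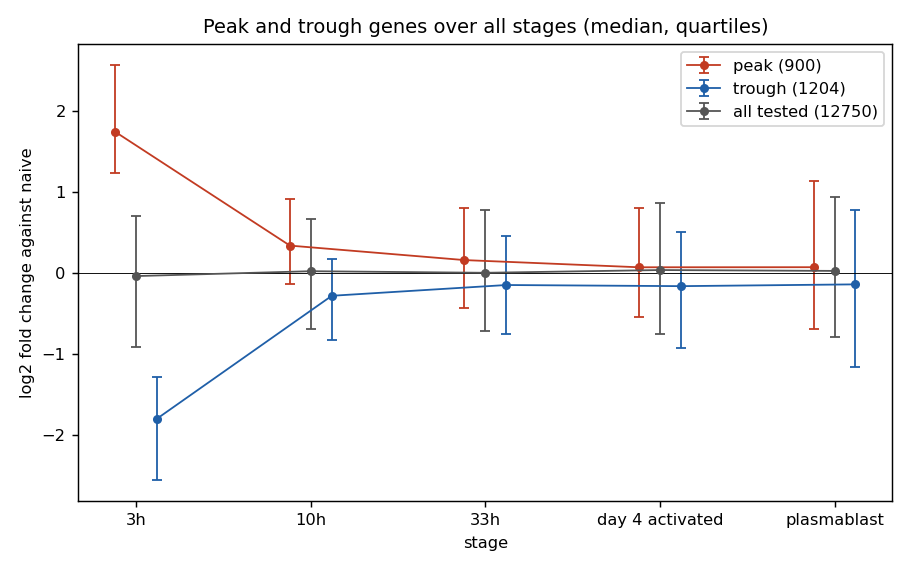
Median log2 fold change against naive (points, with quartiles as bars) at 3h, 10h, 33h, in activated cells of day 4 and in plasmablasts for 900 peak, 1204 trough and all 12750 tested genes, from mean CPM with a prior count of 2. The values at 3h and 10h follow from how the genes were called; from 33h on, the medians of peak genes (0.157, 0.0681 and 0.0691) and trough genes (-0.151, -0.165 and -0.143) lie near 0.

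Peak genes were longer than trough genes. The median exon length was 3363 bases for peak genes, 2420 for trough genes and 2718 for all tested genes, and the median span from start to end was 25718, 19673 and 20678 bases. Of peak genes, 97.0% encode proteins, as do 93.3% of trough genes and 92.7% of all. At 3 h the median level was 27.2 RPKM for peak and 1.62 for trough genes, while in naive cells it was 7.89 and 6.47, beside 7.85 over all tested genes. The number of counts behind a gene grows with its length and level, so that short and weak genes are called less readily, and the part of this in the difference of length was not tested.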

How the data were processed

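RNA-Seq counts of 12 libraries were used, 2 for each of 6 stages, of which naive, 3h and 10h were compared. The authors prepared TruSeq libraries of polyA RNA, sequenced them on an Illumina instrument, aligned reads to mm10 with Rsubread v1.28.0 and obtained counts with featureCounts on its inbuilt Entrez annotation. The submitters' processing notes also name CASAVA 1.8.2. The deposited counts were used as whole numbers per gene, with no scaling or filter by the authors, and the 12 files of individual libraries were equal to the series table. Whether counting used strand is not given in the sources used here, so that genes that overlap or lie antisense may share reads. The exon length that the authors deposited with the counts is in bases.

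After the methods of the study, IDs without an annotation entry, mitochondrial, ribosomal RNA, X and Y genes and immunoglobulin V, D and J segments were removed (3479 of 27179 genes). R 4.3.3 with edgeR 4.0.16 was used: filterByExpr, TMM, robust quasi-likelihood fit of all 12 libraries in a one-way layout, and glmTreat against 1.5-fold. SE is the log2 fold change divided by the square root of the F statistic. RPKM used TMM-scaled totals. In simulated data, 62% of genes set 2-fold apart at 3 h were called in the mean contrast, and 38% as a peak or trough. At 3-fold these shares were 94% and 92%, and no unchanged gene was called. All simulated stages had the same spread for a gene, so that the wider spread at 3 h was not covered. With 2 libraries against 2, no permutation test can give a two-sided p below 0.333.

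The lists and named genes were chosen with earlier results of these data known. Named were Nr4a1, Myc and Id2, the 12 peak and 12 trough genes with the largest smaller step (average log2 CPM of at least 4, no stage at or under 3 counts in both libraries, no predicted gene) and up to 3 called members per list; further members were named after their values were seen, and 1 of the 12 trough genes and some other members are not reported here. The NF-κB and ISRE motifs were shortened to 9 letters before any promoter was searched. Promoters are from RefSeq on GRCm38.p6, the build of the files.

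Alternatives were other scalings, thresholds, filters, dispersion methods, DESeq2 1.42.0, thinning to the smallest total, a replicate term, fits to 6 libraries, other gene removals and leaving out each library.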

Additional observations from a re-analysis of the deposited data

Results flagged for a closer look

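Peaks and troughs also appeared among genes that the study's methods leave out, in a fit that keeps them. That fit gave 887 peak genes and 1278 trough genes among 13854 tested genes, and the main fit had shares of 7.06% and 9.44%. Among 445 tested genes of the X and Y chromosomes, 18 were peak genes (4.04%) and 39 trough genes (8.76%), neither above the shares of the main fit. Il2rg, the common chain of receptors for IL-2 and IL-4, was a peak gene, with steps of 1.14 against naive cells and 2.19 against 10 h (log2 fold change against the mean 1.66, SE 0.07). Tfe3, a transcription factor of lysosome genes, had steps of 2.14 and 1.65, and Bcor, a partner of Bcl6, 1.68 and 2.25. The chemokine receptor gene Cxcr3 was a trough gene, at -3.54 and -2.23. These were chosen after their values were seen. Among 410 tested IDs without an annotation entry, 14 were peak genes (3.41%) and 15 trough genes (3.66%). Of 232 immunoglobulin segments 1 was a trough gene, and of 15 mitochondrial genes none was a peak or trough gene.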

How the results depend on the processing

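The 93 named genes were chosen from these data, most for large changes, and all were called in the mean contrast. How many keep that call is therefore no test of it, and says nothing of peak or trough calls. With library size alone Dusp8, Zc3h12c, Bcl2a1d, Polr1b, Nolc1 and Hspb1 were no longer peak genes. An arithmetic mean of the neighbours moved the contrast of 41 named genes beyond the spread of their 3 h replicates. Of these 93 genes, 82 kept their call and direction in the mean contrast in all 20 refits. The exception in direction was Chac1, which leaving out a library moved between -0.198 (adjusted p = 1, without 3h replicate 2) and 3.41 (without 3h replicate 1), and 11 genes were not called in at least 1 refit. Library size alone gave 1299 genes higher than the mean of the neighbours, 1004 higher and 3432 lower than 10 h, 503 peaks and 1856 troughs; the cause was not tested. DESeq2's Wald test gave 1396 genes lower than 10 h and 724 troughs. The F-test for a change of any size, a wider criterion, gave 4260 and 4220 genes higher and lower than the mean, 4419 higher than naive cells, 3848 and 4094 against 10 h, 2469 peaks, 2465 troughs, and 4461 and 4166 between 10 h and naive cells. A threshold of 2-fold, a narrower one, gave 942 and 1144, 1555, 802 and 1008, 372, 490, and 1333 and 1651. Leaving out each library gave 735 to 1052 peaks, 965 to 1298 troughs, 1836 to 2055 genes higher and 1978 to 2337 lower than the mean, 2469 to 2684 and 2782 to 3143 against naive cells, 1357 to 1885 and 1798 to 2349 against 10 h, and 2193 to 2627 and 2189 to 2764 between 10 h and naive cells. The single library of a stage is then assumed to vary like the others.

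Whether the replicate numbers pair the libraries is not given in the sources used here. The replicate differences of stages correlated by 0.0565 (naive and 3h), -0.0172 (naive and 10h) and -0.139 (3h and 10h). Such values cannot exclude that libraries shared an animal or a day. With a replicate block there were 899 peaks and 1189 troughs, 887 and 1173 of them among those of the fit without it, and with the 10h numbers crossed, an alternative chosen after seeing the data, 909 and 1204. With 2 libraries per stage and the smallest total at 3 h, a gene under 3 counts there has at most 0.13 CPM, which covers counting error only. Thinning to the smallest total gave 882 peaks and 1131 troughs.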
